A study of Homo sapiens with 34 samples.

Results

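Polycomb group genes encode chromatin proteins that keep developmental genes silent. The 10 genes described here were *EZH2*, *EZH1*, *EED* and *SUZ12* of Polycomb repressive complex 2 (PRC2) and *BMI1*, *RING1*, *RNF2*, *CBX2*, *CBX7* and *CBX8* of Polycomb repressive complex 1 (PRC1). They were chosen by symbol, and all 10 of 10 were listed in each of the 6 deposited comparisons, among 13307 genes listed in all 6 and 17587 listed in at least one. The cells were 3 human lines of B-cell acute lymphoblastic leukemia (B-ALL): BV-173, which carries the fusion BCR-ABL, NALM-6, which carries ETV6-PDGFRB, and RS4;11, which carries MLL-AF4. Bulk total RNA was sequenced. Each line was transduced with a lentiviral shRNA against *CCND3*, the main D-type cyclin of these cells, or with a scrambled shRNA, and transduced cells were sorted on day 4. The knockdown rests on 1 shRNA. Each line was also given 1 µM palbociclib, an inhibitor of the kinases CDK4 and CDK6, or its solvent DMSO for 3 days. The 12 groups held 34 samples, 3 in each of 10 groups and 2 in the *CCND3* shRNA group of NALM-6 and the DMSO group of BV-173. The 2 treatments had separate controls, and knockdown cells and their controls carried a vector and were sorted, which palbociclib and DMSO cells were not. The knockdown was set beside the kinase inhibitor to separate what loss of the cyclin does from what loss of its kinase activity does.

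PRC2 places methyl groups on lysine 27 of histone H3. *EZH2* and *EZH1* are its alternative catalytic subunits, *EED* binds the methylated histone and stimulates the enzyme, and *SUZ12* is the scaffold that holds the complex together. *EZH2* is typical of dividing cells and of early B-cell precursors, while *EZH1* is also found in resting cells. PRC1 ubiquitinates histone H2A through *RING1* or *RNF2* (also called RING1B), with *BMI1* as a partner of these enzymes, and its CBX proteins read the mark left by PRC2. Genes for DNA replication and several PRC2 genes are textbook targets of the E2F factors, which the retinoblastoma protein holds in check until cyclin D kinases phosphorylate it.

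The promoters of the PRC2 genes are shown because words bound by E2F factors differed among them. Sequences came from RefSeq (GRCh38.p14), with 250 bases before a start site and 50 after it searched. For 8 of the 10 genes 10 such windows were found, and *CBX2* and *CBX8* had none. The searched E2F words were TTTCCCGC, TTTGGCGC, TTTCGCGC and TTTGCCGC, on both strands. Capitals mark an E2F word, each sequence is written 5′ to 3′ on the gene's strand, and every base outside the word is in lower case.
*EZH2*, chr7:148884283-148884541, minus strand: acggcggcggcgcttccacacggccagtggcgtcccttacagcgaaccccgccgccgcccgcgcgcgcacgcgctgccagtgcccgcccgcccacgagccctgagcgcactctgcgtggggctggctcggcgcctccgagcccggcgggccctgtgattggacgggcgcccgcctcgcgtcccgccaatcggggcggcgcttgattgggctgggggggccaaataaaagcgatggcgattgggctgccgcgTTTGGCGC
*SUZ12*, chr17:31936757-31937006, plus strand: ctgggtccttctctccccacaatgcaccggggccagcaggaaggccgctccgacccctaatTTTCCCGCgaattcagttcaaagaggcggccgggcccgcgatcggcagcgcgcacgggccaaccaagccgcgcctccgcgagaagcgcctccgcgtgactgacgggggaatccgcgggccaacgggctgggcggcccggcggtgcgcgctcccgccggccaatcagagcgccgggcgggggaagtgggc
*EED*, chr11:86244503-86244752, plus strand: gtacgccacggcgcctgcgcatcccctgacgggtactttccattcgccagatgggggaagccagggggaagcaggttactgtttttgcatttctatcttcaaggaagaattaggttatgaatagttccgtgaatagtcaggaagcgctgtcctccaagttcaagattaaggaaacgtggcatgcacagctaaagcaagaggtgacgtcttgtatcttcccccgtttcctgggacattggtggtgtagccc
*EZH1*, chr17:42745041-42745290, minus strand: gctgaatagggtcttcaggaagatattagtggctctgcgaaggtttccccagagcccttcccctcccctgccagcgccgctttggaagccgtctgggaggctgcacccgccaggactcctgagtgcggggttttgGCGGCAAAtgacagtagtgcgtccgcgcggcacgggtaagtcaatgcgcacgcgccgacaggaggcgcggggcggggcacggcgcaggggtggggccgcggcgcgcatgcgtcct
The word of *EZH2* was TTTGGCGC, beginning at position 2 of the transcript. *SUZ12* held TTTCCCGC at position -189 from its start, and *EZH1* held TTTGCCGC on the opposite strand at position -115, printed here as its reverse complement. The other window of *EZH2* (chr7:148883486-148883735) and those of *EED*, *BMI1*, *RING1*, *RNF2* and *CBX7* held none of these words. Of all 35116 promoter windows, 3.32% held one, and of the 15764 windows of genes listed in all 6 comparisons, 4.75% did. The cell-cycle word TTTGAA was found in the window of *SUZ12* at position -173 (15.2% of all windows), and the E-box CACGTG, which reads the same on both strands, in one window of *BMI1* at position -70 (7.26% of all windows). These matches did not overlap one another, and they are a description of the letters in these windows.

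The deposited tables gave 1 level per group, scaled by the authors within each pair of groups. The spread between the samples of a group and the depth of each sample were therefore not visible, no SD over samples is given, and levels set across comparisons are a description. A change was measured as the log2 ratio of treated to control level in each line, and the 3 lines served as the replicates of a limma fit over 13307 genes. A gene was called at a Benjamini-Hochberg adjusted p under 0.1. The SE and p are moderated by limma, which draws a gene's spread between the 3 lines toward that of genes at a similar mean level. For *RING1* with knockdown the SD of the 3 ratios was 0.07 and the SE 0.12. Neither the SE nor the p measures a spread between samples. The labels were checked with *CCND3* (NCBI gene 896), which was left at 31.1% of control in BV-173, 24.2% in NALM-6 and 20.7% in RS4;11 after its knockdown, and it had log2 ratios from -0.40 to -0.29 with palbociclib. All 10 B-lineage markers were listed in every comparison, with a summed level from 55502 to 130483, whereas the summed level was 0.869 to 7.70 for T cell markers, 1.05 to 4.87 for erythroid markers, 88.4 to 560 for myeloid markers and 14.2 to 241 for stromal or epithelial markers. Among the B-lineage markers, *MME* and *DNTT* were as low as 2.53 and 75.2 in their lowest group. The median log2 ratio of all genes in a comparison lay between -0.01 and 0.06.

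In the 6 control groups the PRC2 scaffold and the catalytic subunit *EZH2* were the most abundant of the 10 transcripts per kilobase. The median control level per kilobase was 955 for *SUZ12* (range 825 to 1080) and 757 for *EZH2* (619 to 1143). *BMI1* followed with a median of 483 per kilobase (332 to 750), *RING1* with 358 (269 to 638) and *CBX2* with 322 (281 to 552). The ranges of these 3 genes over the control groups overlapped, as did those of *SUZ12* and *EZH2*. *EED* had a median control level of 254 per kilobase (209 to 322), *EZH1* of 187 (148 to 222), *RNF2* of 176 (149 to 253) and *CBX8* of 121 (107 to 155). *CBX7* was lowest, with a median of 32.8 per kilobase and a range from 3.78 to 48.8. Neighbours in this order overlapped except for *CBX8* and *CBX7*.

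**Figure D1:**
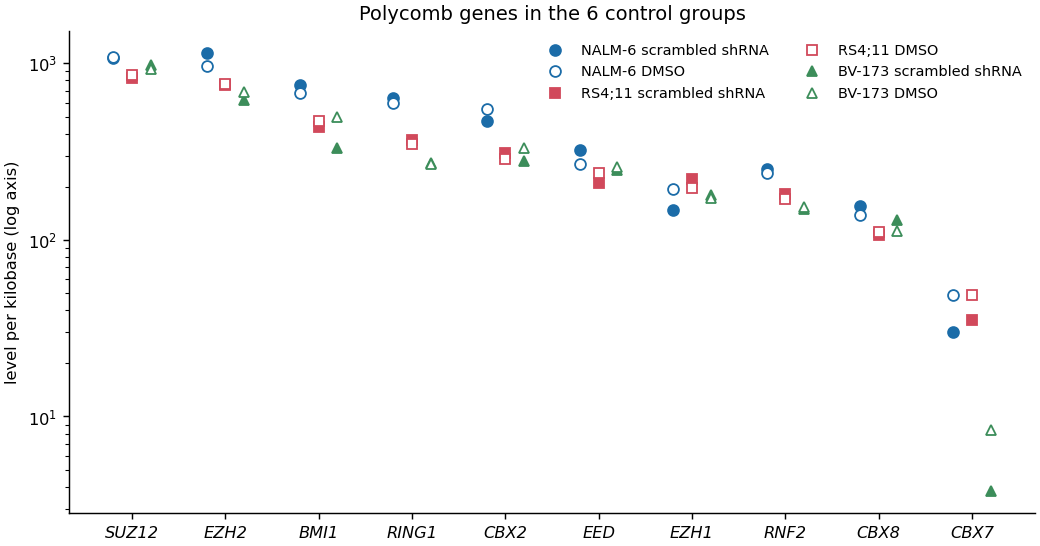
Level per kilobase (log axis) of the 10 Polycomb genes in the 6 control groups, ordered by their median; filled symbols are scrambled shRNA and open symbols DMSO, with circles for NALM-6, squares for RS4;11 and triangles for BV-173. *SUZ12* and *EZH2* have the highest medians, and *CBX7* falls to 3.78 per kilobase in BV-173.

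The PRC1 genes *CBX7*, *RING1*, *BMI1* and *CBX2* had the widest ranges over the controls, from 0.96 to 3.69 on the log2 scale. NALM-6 had the highest control levels of *BMI1*, *RING1*, *RNF2* and *CBX2* in both kinds of control. The same held for *EZH2*, *SUZ12*, *EED* and *CBX8*, but not for *EZH1* and *CBX7*. *RING1* was at 1112 and 1034 in the scrambled and DMSO controls of NALM-6, against 643 and 607 in RS4;11 and 477 and 469 in BV-173. *CBX7* was at 15.4 and 34.4 in the controls of BV-173, against 123 to 199 in the other two lines. These differences between lines have 1 value per group and were not tested. *SUZ12* spanned the narrowest range, 0.39 on the log2 scale from the lowest to the highest control.

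Among the 10 genes, the PRC2 transcripts other than *EZH1* were lower with both treatments. *EZH2*, *EED* and *SUZ12* were below their control in all 3 lines with either treatment, and each passed the test in both. The knockdown call of *EED* (limma adjusted p = 0.0860) was lost under several alternatives. Of the 10 genes, 4 fell with *CCND3* knockdown (*EZH2*, *SUZ12*, *CBX2* and *EED*) and 5 with palbociclib (the same 4 genes and *CBX7*), against a background of 7.48% of all genes called lower with knockdown and 13.6% with palbociclib. None of the 10 was called higher by limma, beside 4.95% of all genes with knockdown and 11.2% with palbociclib at an adjusted p under 0.1. None was higher at an unadjusted limma p under 0.05 either. The median log2 ratio of the 10 genes was -0.20 with knockdown and -0.63 with palbociclib, beside 0.00 and 0.04 for all genes. In bulk RNA, fewer cells of a type and less RNA per cell cannot be told apart.

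*EZH2* (NCBI gene 2146, chr7:148807383-148884291), the main methyltransferase of PRC2, was reduced to about the same share of its control in each line by knockdown. Its level was 3063 with scrambled and 1711 with *CCND3* shRNA in NALM-6, 2024 and 985 in RS4;11, and 1662 and 811 in BV-173. With DMSO and palbociclib it was 2602 and 1180 in NALM-6, 2049 and 534 in RS4;11, and 1860 and 611 in BV-173. Every treated level lay below the control of its own line. On the deposited scale the NALM-6 knockdown level lay above the BV-173 scrambled level. These groups were scaled apart, with a median level of all genes of 374 in the first and 363 in the second, so this overlap is a description. The log2 ratio with knockdown was -0.84 in NALM-6 and -1.04 in each of the other lines, a mean of -0.97 ± 0.11 (SE, n = 3 lines, limma adjusted p = 0.0176), or 51.0% of control. With palbociclib the log2 ratios were -1.14, -1.94 and -1.61 in the same order, a mean of -1.56 ± 0.17 (SE, n = 3 lines, limma adjusted p = 0.0077), or 33.9% of control. After knockdown in BV-173, 0.359% of the genes of that comparison had a lower ratio than *EZH2*, while 4.45% did in NALM-6 and 3.61% did in RS4;11. With palbociclib these shares were 1.68% in BV-173, 5.49% in NALM-6 and 2.47% in RS4;11.

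*SUZ12* (NCBI gene 23512, chr17:31937007-32001038), the PRC2 scaffold, had nearly the same ratio in all 6 comparisons. Its level went from 4828 to 2545 with knockdown in NALM-6, from 3716 to 1933 in RS4;11 and from 4409 to 2625 in BV-173. From DMSO to palbociclib it went from 4872 to 2645, from 3897 to 1976 and from 4204 to 2080 in the same order of lines. No treated level reached any control level, so the 6 treated and the 6 control groups did not overlap. The mean log2 ratio was -0.87 ± 0.10 with knockdown (SE, n = 3 lines, limma adjusted p = 0.0176) and -0.96 ± 0.11 with palbociclib (adjusted p = 0.0085), or 54.6% and 51.5% of control. The 6 single ratios ranged from -1.02 to -0.75.

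*EED* (NCBI gene 8726, chr11:86244753-86287615), the subunit that reads the methylated histone, also fell with both treatments, but 1 line stood apart with knockdown. Its level was 796 with scrambled and 464 with *CCND3* shRNA in NALM-6, 519 and 281 in RS4;11, and 619 and 560 in BV-173. With DMSO and palbociclib it was 666 and 291, 595 and 234, and 645 and 345 in the same order of lines. All palbociclib levels were below every control level, whereas on the deposited scale the BV-173 knockdown level lay above the RS4;11 scrambled level. These groups were scaled apart, with a median level of all genes of 367 in the first and 336 in the second, so this overlap is a description. The log2 ratio with knockdown was -0.14 in BV-173 against -0.78 in NALM-6 and -0.88 in RS4;11, with a mean of -0.60 ± 0.17 (SE, n = 3 lines, limma adjusted p = 0.0860). The knockdown call was lost without NALM-6 (mean -0.51, adjusted p = 0.269) and without RS4;11 (mean -0.46, adjusted p = 0.396), with a range of 0.0227 to 0.396 over the alternatives. With palbociclib the ratios were -1.19, -1.35 and -0.91, with a mean of -1.15 ± 0.16 (limma adjusted p = 0.0115).

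**Figure D2:**
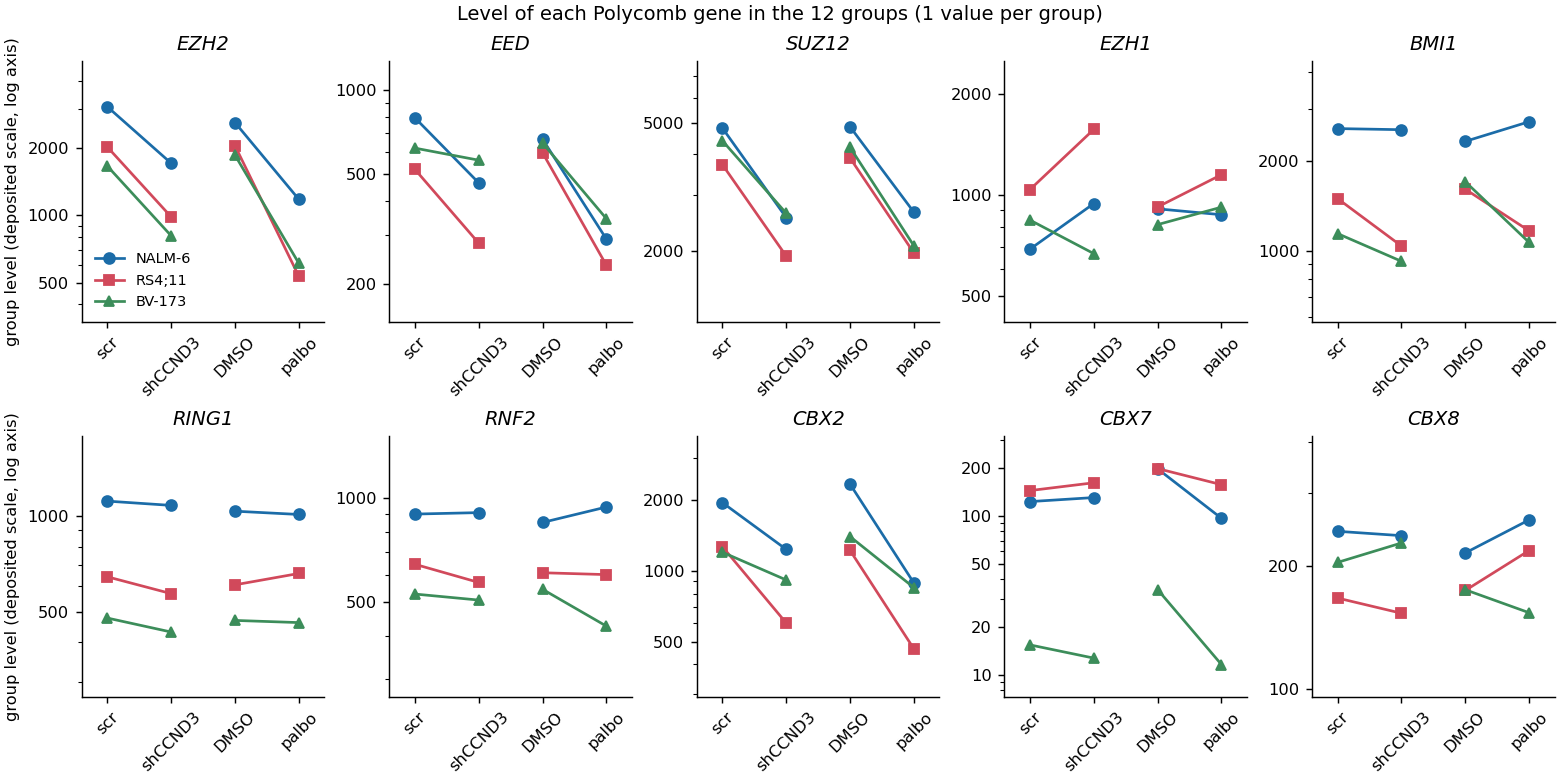
Group level on the deposited scale (log axis, 1 value per group) of each gene with scrambled shRNA (scr), *CCND3* shRNA (shCCND3), DMSO and palbociclib (palbo); lines join a treatment to its own control, with circles for NALM-6, squares for RS4;11 and triangles for BV-173. *EZH2*, *EED*, *SUZ12* and *CBX2* slope down in every panel segment, from 3063 to 1711 for *EZH2* with knockdown in NALM-6, while *RING1* stays between 431 and 1112.

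E2F-driven replication genes were also lower with both treatments. Of 16 such genes, 15 were called lower with knockdown (median log2 ratio -1.15, range -1.41 to -0.58), beside 7.48% of all genes. With palbociclib 15 were called lower (median -2.28, range -3.96 to -0.38), beside 13.6%. *CCNE1*, for cyclin E1, was the one that did not pass in either. The ratios of *EZH2* and *SUZ12* lay inside the range of this list in both treatments, on the weaker side of its median. The median of the list in BV-173 was -0.53 with knockdown, where *EZH2* was at -1.04, *EED* at -0.14 and *SUZ12* at -0.75. The part of cell-cycle position in the PRC2 values was not tested.

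**Figure D3:**
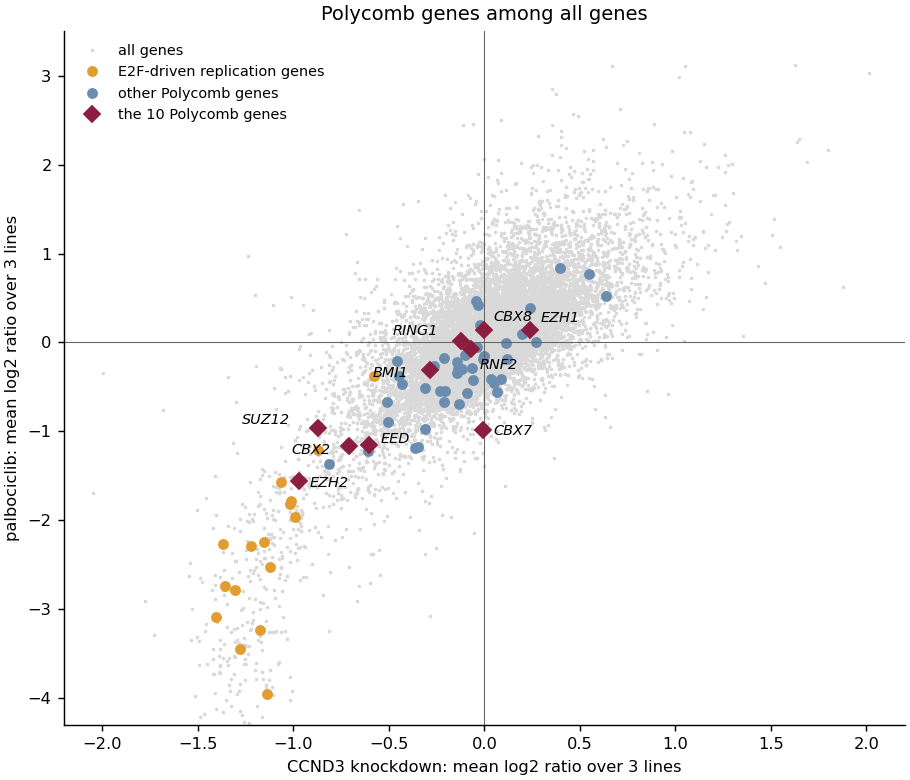
Mean log2 ratio over the 3 lines with *CCND3* knockdown (x axis) and with palbociclib (y axis) for all genes listed in all 6 comparisons (grey points), 16 E2F-driven replication genes (orange circles), 44 other Polycomb genes (blue circles) and the 10 Polycomb genes (red diamonds); 6 genes lie outside the axes. *EZH2* sits at -0.97 and -1.56, next to the replication genes, *EZH1* at 0.24 and 0.15 with the bulk of genes, and *CBX7* at -0.01 and -0.98.

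*EZH1*, the alternative enzyme of PRC2, did not follow *EZH2*. *EZH1* (NCBI gene 2145, chr17:42700275-42745040) was at 688 with scrambled and 942 with *CCND3* shRNA in NALM-6, 1037 and 1569 in RS4;11, and 840 and 667 in BV-173. With DMSO and palbociclib it was 908 and 872 in NALM-6, 920 and 1149 in RS4;11, and 815 and 919 in BV-173. The levels of treated and control groups overlapped, and the knockdown level in RS4;11 was the highest of the 12. The log2 ratios with knockdown were 0.60 in RS4;11, 0.45 in NALM-6 and -0.33 in BV-173, a mean of 0.24 ± 0.18 (SE, n = 3 lines, limma adjusted p = 0.480). Without BV-173 the mean was 0.53 and passed the threshold (adjusted p = 0.0498, with a range of 0.0498 to 0.950 over the alternatives). The log2 ratios with palbociclib were -0.06, 0.32 and 0.17, a mean of 0.15 ± 0.14 (limma adjusted p = 0.504). The scrambled and DMSO controls of NALM-6 themselves differed by 0.40 on the log2 scale for *EZH1*, about as much as the knockdown ratio in that line, beside a median of -0.08 for all genes.

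The RNA level of *EZH1* relative to that of *EZH2* was higher than in the control in every line with both treatments. Any gene with a higher log2 ratio than *EZH2* shows such a rise, and only 0.359% to 5.49% of the genes of a comparison had a lower ratio. The rise is therefore not particular to *EZH1*. Per kilobase, the level of *EZH1* over that of *EZH2* went from 0.130 with scrambled to 0.317 with *CCND3* shRNA in NALM-6, from 0.296 to 0.920 in RS4;11 and from 0.289 to 0.471 in BV-173. From DMSO to palbociclib it went from 0.201 to 0.426 in NALM-6, from 0.258 to 1.23 in RS4;11 and from 0.252 to 0.866 in BV-173. *EZH2* was thus the more abundant of the pair per kilobase in all 6 control groups, by 3.38-fold to 7.72-fold, and *EZH1* exceeded *EZH2* in 1 group, RS4;11 with palbociclib. The log2 change of the ratio averaged 1.21 with knockdown (SD over 3 lines 0.47, range 0.70 to 1.64) and 1.71 with palbociclib (SD 0.59, range 1.08 to 2.26), or 2.31-fold and 3.27-fold. A two-sided exact sign-flip permutation test over 3 lines cannot give a p below 0.25, so none is given. In BV-173 after knockdown the ratio was 1.63-fold higher with *EZH1* itself at a log2 ratio of -0.33, since *EZH2* was at -1.04. In NALM-6 with palbociclib the ratio was 2.12-fold higher with *EZH1* at -0.06 and *EZH2* at -1.14.

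**Figure D4:**
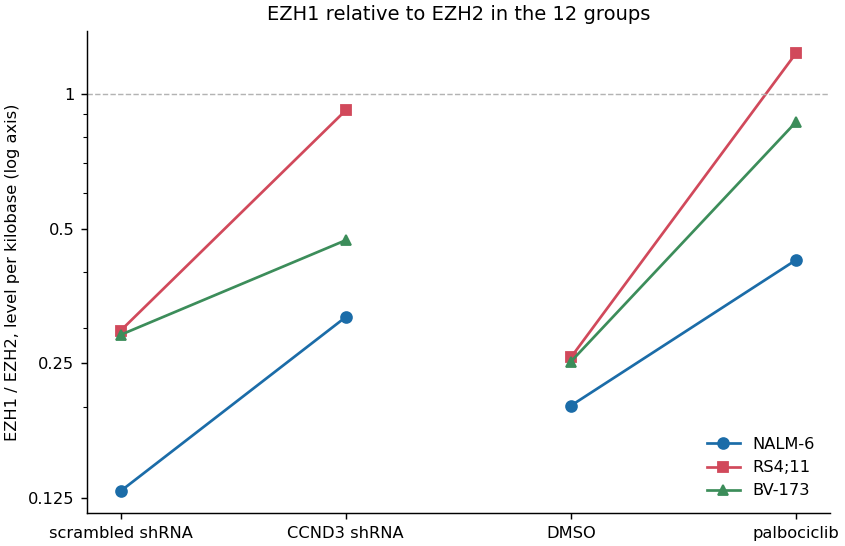
Level of *EZH1* over that of *EZH2*, both per kilobase (log axis), in the 12 groups, with circles for NALM-6, squares for RS4;11 and triangles for BV-173; lines join a treatment to its own control, and the dashed line marks equal levels. All 6 segments rise, and RS4;11 with palbociclib, at 1.23, is the one group above the dashed line.

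The core enzymes of PRC1 had log2 ratios close to 0. *RING1* (NCBI gene 6015, chr6:33208500-33212716), which carries the ubiquitin ligase activity, had knockdown ratios from -0.18 to -0.04 and palbociclib ratios from -0.03 to 0.12. *RNF2* (NCBI gene 6045, chr1:185045558-185102603), its more widely used paralog, had knockdown ratios from -0.17 to 0.01 and palbociclib ratios from -0.35 to 0.15. The SD of the 3 ratios was 0.07 for *RING1* and 0.09 for *RNF2* with knockdown, smaller than those of the other 8 genes. The means with knockdown were -0.12 ± 0.12 for *RING1* (SE, n = 3 lines, limma adjusted p = 0.593) and -0.07 ± 0.12 for *RNF2* (adjusted p = 0.773). With palbociclib they were 0.02 ± 0.14 (adjusted p = 0.931) and -0.07 ± 0.16 (adjusted p = 0.775).

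*BMI1* (NCBI gene 648, chr10:22321099-22331706), the partner of these ligases, had palbociclib ratios of both signs. In NALM-6 it was at 2575 with scrambled and 2553 with *CCND3* shRNA, and at 2332 with DMSO and 2716 with palbociclib. In RS4;11 it was at 1497 and 1037 with knockdown, and at 1611 and 1166 with palbociclib. In BV-173 it was at 1141 and 921, and at 1707 and 1066. With palbociclib the level was thus higher than its control in NALM-6 (log2 ratio 0.22) and lower in RS4;11 and BV-173, and with knockdown it was lower in RS4;11 and BV-173 and at the control level in NALM-6 (-0.01). The mean log2 ratio was -0.28 ± 0.13 with knockdown (SE, n = 3 lines, limma adjusted p = 0.217) and -0.31 ± 0.19 with palbociclib (adjusted p = 0.310). Without NALM-6 the palbociclib mean was -0.57 and just passed the threshold (adjusted p = 0.0962, with a range of 0.0962 to 0.729 over the alternatives). *BMI1* shares its exons with the readthrough transcript *COMMD3-BMI1* (chr10:22316388-22331484), so its level is uncertain. *COMMD3-BMI1* went from 222 to 375 with knockdown in RS4;11 and from 209 to 275 in BV-173, the opposite direction to *BMI1*. With palbociclib it went from 120 to 258 in BV-173, from 257 to 300 in RS4;11 and from 519 to 328 in NALM-6, again opposite to *BMI1* in each line. The DMSO level of *BMI1* in BV-173 was also 0.58 above its scrambled level on the log2 scale.

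The CBX readers of the PRC2 mark differed from one another. *CBX2* (NCBI gene 84733, chr17:79777311-79787983), which also compacts chromatin, fell with both treatments. It was at 1947 with scrambled and 1232 with *CCND3* shRNA in NALM-6, 1265 and 599 in RS4;11, and 1198 and 913 in BV-173. With DMSO and palbociclib it was 2331 and 886, 1219 and 465, and 1396 and 847 in the same order. The palbociclib levels lay below all control levels. On the deposited scale the NALM-6 knockdown level lay among the controls of the other lines. The groups were scaled apart, with a median level of all genes of 374 in the first and from 336 to 368 in those controls, so this overlap is a description. The mean log2 ratio was -0.71 ± 0.15 with knockdown (SE, n = 3 lines, limma adjusted p = 0.0338) and -1.17 ± 0.17 with palbociclib (adjusted p = 0.0124). The knockdown call was lost without RS4;11 (mean -0.53, adjusted p = 0.164), which was the largest adjusted p of the alternatives (range 0.0196 to 0.164).

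*CBX7* (NCBI gene 23492, chr22:39130772-39152680), a reader found mostly in stem and resting cells, fell with palbociclib and had no shared direction with knockdown. It was at 198 with DMSO and 96.7 with palbociclib in NALM-6, 199 and 157 in RS4;11, and 34.4 and 11.6 in BV-173. With scrambled and *CCND3* shRNA it was 123 and 131 in NALM-6, 145 and 162 in RS4;11, and 15.4 and 12.7 in BV-173. Each palbociclib level was below its own DMSO control, while in knockdown only BV-173 was lower. The mean log2 ratio was -0.98 ± 0.31 with palbociclib (SE, n = 3 lines, limma adjusted p = 0.0870) and -0.01 ± 0.20 with knockdown (adjusted p = 0.985). The palbociclib call was lost without NALM-6 (mean -0.95, adjusted p = 0.217) and without BV-173 (mean -0.69, adjusted p = 0.286), with a range of 0.0643 to 0.286 over the alternatives. The DMSO level of *CBX7* was above the scrambled level in all 3 lines, by 1.16 on the log2 scale in BV-173, 0.68 in NALM-6 and 0.46 in RS4;11, so its palbociclib ratio starts from a higher control. *CBX8* (NCBI gene 57332, chr17:79792132-79797077), another reader, stayed between 153 and 259 in all 12 groups, with mean log2 ratios of 0.00 ± 0.17 (adjusted p = 1.00) and 0.13 ± 0.21 (adjusted p = 0.690).

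**Figure D5:**
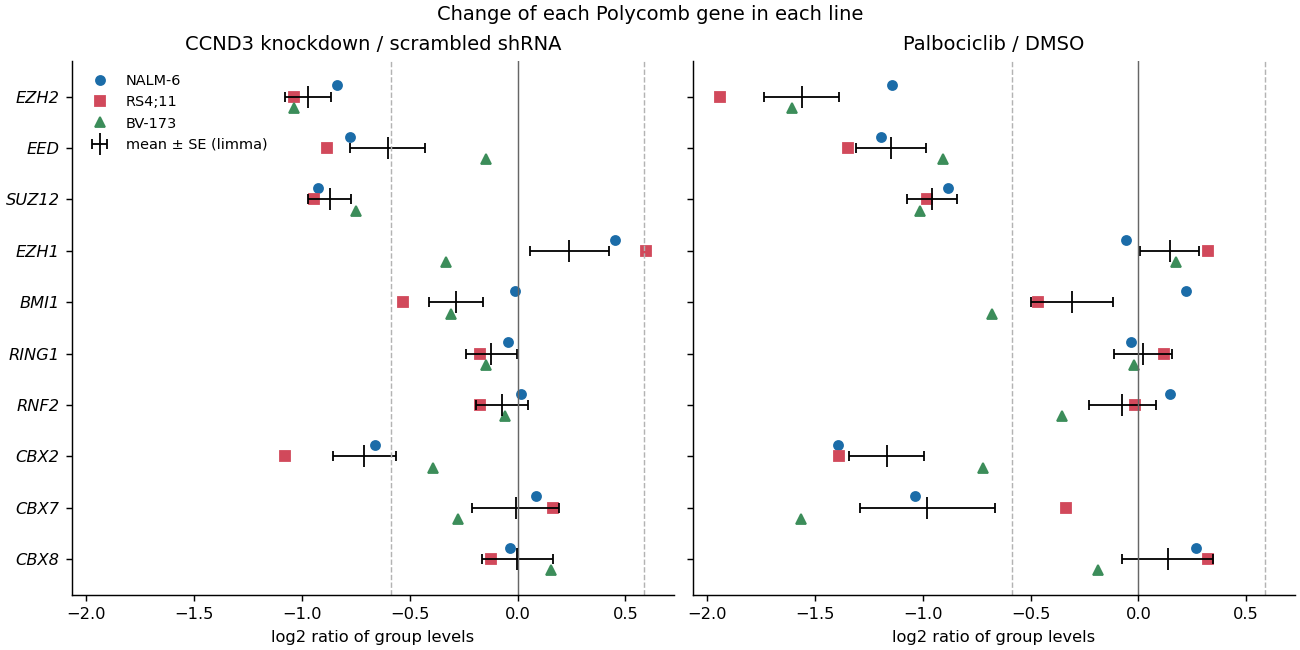
Log2 ratio of treated to control level of the 10 genes with *CCND3* knockdown (left) and palbociclib (right), with circles for NALM-6, squares for RS4;11 and triangles for BV-173; the bar is the limma mean ± SE over the 3 lines, and dashed lines mark a 1.5-fold change. *EZH2*, *EED*, *SUZ12* and *CBX2* lie left of 0 in every line with both treatments, and *CBX7* lies left of 0 in every line with palbociclib alone.

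Line by line, a 1.5-fold change was used as a fixed size without a test. With knockdown in NALM-6, 4 of the 10 genes were at least 1.5-fold lower and none higher, beside 8.47% and 7.82% of all genes. In RS4;11, 4 were lower and *EZH1* was the 1 gene higher, beside 9.72% and 9.73%. In BV-173 the 2 genes lower were *EZH2* and *SUZ12* and none was higher, beside 4.78% and 3.32%. With palbociclib 5 genes were lower in NALM-6, beside 14.9%, 4 in RS4;11, beside 15%, and 6 in BV-173, beside 11.9%. *BMI1* was the gene added in BV-173. No gene of the 10 was 1.5-fold higher with palbociclib, where 13.6% of all genes were in BV-173, 21.4% in NALM-6 and 16.7% in RS4;11.

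The treatments were compared as the knockdown log2 ratio less the palbociclib log2 ratio within each line. *EZH2*, *EED* and *CBX2* were lowered less by knockdown than by palbociclib. *CBX7* was lowered by palbociclib and had a mean log2 ratio of -0.01 with knockdown. These 4 of the 10 genes passed the threshold beside 7.16% of all genes called in that direction. No gene of the 10 was called in the other direction by limma, beside 4.16% of all genes at an adjusted p under 0.1. None passed in that direction at an unadjusted limma p under 0.05 either. The difference for *EZH2* was 0.90 in RS4;11, 0.57 in BV-173 and 0.30 in NALM-6, with a mean of 0.59 ± 0.14 (SE, n = 3 lines, limma adjusted p = 0.0606). It was 0.55 ± 0.15 for *EED* (adjusted p = 0.0879), 0.46 ± 0.13 for *CBX2* (adjusted p = 0.0959) and 0.97 ± 0.28 for *CBX7* (adjusted p = 0.0909), each with the same sign in 3 of 3 lines. For *SUZ12* it was 0.09 ± 0.11 (adjusted p = 0.677), with a negative value in NALM-6, and for *EZH1* 0.09 ± 0.20 (adjusted p = 0.808). The median difference of the 10 genes was 0.09, beside -0.01 for all genes, and that of the 16 replication genes was 1.08, with 14 of them called in the same direction. These calls were close to the threshold. Those of *EED*, *CBX2* and *CBX7* were lost without any one line, with adjusted p from 0.129 to 0.385, and that of *EZH2* was lost without RS4;11 (mean 0.44, adjusted p = 0.205) and without BV-173 (mean 0.60, adjusted p = 0.120). The adjusted p of all alternatives lay between 0.0541 and 0.205 for *EZH2*, 0.0826 and 0.223 for *EED*, 0.0867 and 0.385 for *CBX2* and 0.0796 and 0.303 for *CBX7*. Time, vector and sorting also differed between the treatments, and they cannot be told apart from the treatment itself. The difference for *CBX7* was 1.29 in BV-173, 1.12 in NALM-6 and 0.50 in RS4;11. Its DMSO level lay above its scrambled level by 1.16, 0.68 and 0.46 on the log2 scale in the same order. This gap between the controls is part of the *CBX7* difference.

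A wider list of 46 Polycomb genes, with 44 listed in all 6 comparisons, gave 5 calls lower and 2 higher with knockdown, beside 7.48% and 4.95% of all genes, so the knockdown counts were near this background. With palbociclib 16 were lower and 3 higher, beside 13.6% and 11.2%. Without the trend in the limma fit, knockdown gave 0 lower (7 at an unadjusted p under 0.05) and 1 higher. Palbociclib gave 8 lower and 2 higher. The shares of all genes were then 4.15% and 2.09% with knockdown and 9.85% and 8.44% with palbociclib. With knockdown there were 2 lower and 1 higher without NALM-6, beside 3.79% and 2.09% of all genes. Without RS4;11 there were 0 lower by limma (5 at an unadjusted p under 0.05) and 1 higher, beside 2.78% and 0.917%. Without BV-173 there were 8 lower and 3 higher, beside 10.5% and 6.99%. With palbociclib the lower calls numbered 10, 6 and 9 in the same order, beside 7.97%, 7.55% and 10.7%. Among the PRC2 partners, 3 of 9 fell with knockdown, beside 7.48% of all genes, and 5 of 9 with palbociclib, beside 13.6%. Without the trend these were 0 by limma (3 at an unadjusted p under 0.05) and 2, beside 4.15% and 9.85%. No share of all genes at an unadjusted p is given for the wider list or its parts. *RBBP7*, a histone-binding PRC2 subunit, fell by 0.61 on the log2 scale with knockdown (limma adjusted p = 0.0581) and by 1.22 with palbociclib, and *PHF19*, a Tudor-domain partner that recruits PRC2, fell by 0.81 and 1.37. *MTF2*, a related recruiter, fell with knockdown by 0.45 on the log2 scale. *RBBP4*, the paralog of *RBBP7*, fell by 0.52 with palbociclib, where *AEBP2* (mean -0.42) and *LCOR* (mean -0.57) also passed.

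Among the 24 PRC1 partners, 0 were called lower by limma (4 at an unadjusted p under 0.05) and 1 higher with knockdown, beside 7.48% and 4.95% of all genes. With palbociclib 9 were called lower and 2 higher, beside 13.6% and 11.2%. *PCGF6* (mean log2 ratio -1.19) and *PCGF2* (-0.56), relatives of *BMI1*, fell with palbociclib as did *PCGF5* (-0.46), while *BMI1* itself did not pass. *CBX6*, a further CBX reader, rose with both treatments, by 0.55 with knockdown and 0.77 with palbociclib on the log2 scale. *SCMH1* (-0.98), *SCML2* (-0.89), *USP7* (-0.67), *AUTS2* (-0.54) and the repressor *E2F6* (-0.47) fell with palbociclib, and *L3MBTL2* rose (0.47). Of the complex that removes the H2A mark, 9 genes were tested, and *HCFC1* fell with both treatments (-0.51 and -0.67), *ASXL1* with knockdown (-0.46), and *MBD5* rose with palbociclib (0.84). *KDM6B*, an enzyme that removes the PRC2 mark, rose with knockdown (mean log2 ratio 0.64, limma adjusted p = 0.0216), and its mean with palbociclib was 0.52 (adjusted p = 0.254). *KDM6A*, which removes the same mark, fell with palbociclib (mean -0.55, limma adjusted p = 0.0577), and its mean with knockdown was -0.21 (adjusted p = 0.337). When each line was left out in turn, the palbociclib calls of *RBBP7*, *PHF19*, *PCGF6*, *CBX6*, *SCMH1* and *SCML2* and the knockdown call of *KDM6B* passed each time, and every other call named here for the wider list was lost without at least 1 line. Those of *PCGF2*, *PCGF5*, *E2F6*, *AEBP2* and *LCOR* with palbociclib were lost whichever line was left out, with limma adjusted p from 0.101 to 0.379.

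Genes that PRC2 silences in other tissues were mostly at the edge of detection in a given comparison, so the silenced state could not be followed over the list. Some were well expressed in their highest group, at 2421 for *HOXA9*, 1511 for *HOXA7* and 1278 for *HOXA10*. The highest level was 694 for *HOXC4*, 310 for *HOXB7* and 2257 for *CCND2*. Of 18 textbook targets, 4 were listed in all 6 comparisons, and between 4 and 8 reached a mean level of 10 in a comparison. Of the targets at such a mean level, none was 1.5-fold higher with knockdown, beside 3.32% to 9.73% of all genes. *BMP4* in NALM-6 (log2 ratio -1.23) and *GATA6* in RS4;11 (-0.77) were 1.5-fold lower, beside 8.47% and 9.72%. With palbociclib *PAX6* (0.62) and *CCND2* (3.12) were 1.5-fold higher in NALM-6, beside 21.4% of all genes. In BV-173 *HOXB4* (0.78) and *CCND2* (1.40) were, beside 13.6%. *HOXA5* in RS4;11 (-1.24) and *CDKN1C* in BV-173 (-1.15) were 1.5-fold lower, beside 15% and 11.9%. Several of these targets were at low levels. Where listed, *GATA6* lay between 10.1 and 17.9, *PAX6* between 15.0 and 39.1, and *HOXB4* at no more than 23.5. *CCND2* lay below that mean level in RS4;11, at 1.93 with scrambled and 3.48 with *CCND3* shRNA, and at 1.40 with DMSO and 4.69 with palbociclib. *CCND2*, another D-type cyclin, was called higher with palbociclib over the 3 lines (mean log2 ratio 2.09, limma adjusted p = 0.0195), and *BMP4*, at levels from 2.37 to 22.2, was called lower with knockdown (mean -0.81, adjusted p = 0.0707, lost without NALM-6 at 0.279 and without RS4;11 at 0.130, range 0.0718 to 0.279 over the alternatives).

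Likeness to *EZH2* and *EZH1* was measured as the distance over the 6 log2 ratios, among 10074 genes with a mean level of at least 100. *FAM111A*, a replication fork protease, was closest to *EZH2* (distance 0.187), with a knockdown ratio of -0.82 in NALM-6 and palbociclib ratios of -1.56 in BV-173, -1.21 in NALM-6 and -1.78 in RS4;11. *LRRCC1* (0.515), *CRYBG1* (0.625), *CASP8AP2* (0.629) and *TOPBP1* (0.633) followed at a larger distance. *HMBOX1*, a homeobox gene, was closest to *EZH1* (distance 0.0984), with knockdown ratios of 0.61 in RS4;11, 0.51 in NALM-6 and -0.28 in BV-173. *MRRF* (0.248), *DTNB* (0.299), *MGAT4A* (0.330) and *ATF7IP2* (0.358) came next. The ratios behind each distance share their 3 lines and their controls, and no test was made of them.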

How the data were processed

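Bulk RNA-seq covered 34 samples, which the labels place in 12 groups by line and treatment. Read filtering was done with SOAPnuke, mapping to hg38 with Bowtie2, quantification with RSEM and the comparison of groups with DESeq2, in versions not given in the sources used here. The authors' deposited tables hold 1 signal per group, scaled within a pair of groups and never at 0, a gene length, and the authors' own log2 fold change, p-value and adjusted p. Those comparison columns were not used. The p-values here therefore rest on lines, not samples.

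Log2 ratios of treated to control signal were computed without a pseudocount and fitted with an intercept in limma 3.58.1 (R 4.3.3, lmFit, eBayes with a trend on the mean level) over the 13307 genes shared by the 6 comparisons, with adjustment by Benjamini-Hochberg and a threshold of 0.1. The difference between treatments was fitted in the same way within lines. Levels per kilobase used the gene length in each deposited table. Scripts ran in Python 3.11.15 (numpy 2.4.6, pandas 2.3.3, matplotlib 3.10.9) and were tested on simulated data. The SD of log2 ratios was smaller for genes with a mean level under 10 than for those from 10 to 100 in all 6 comparisons and whether ratios of low genes were shrunk was not tested. Positions and promoters are from RefSeq (GRCh38.p14).

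The named genes were the 10 members whatever their values, called genes of the wider Polycomb list, the replication, target and marker lists, and the 5 genes most like *EZH2* and *EZH1*. One called gene of these lists is not reported here. Members and lists were chosen with earlier results of these data known. The alternatives were a pseudocount of 1, centring on the median, a mean level of at least 10, no trend, a threshold of 0.05, a smaller fold and a fold of 2, a common median across comparisons, and leaving out each line.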

Additional observations from a re-analysis of the deposited data

Results flagged for a closer look

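*EZH1* after *CCND3* knockdown stood out because the lines moved in opposite directions by at least 0.32 on the log2 scale either way. The log2 ratio of knockdown to scrambled level was 0.45 in NALM-6 and 0.60 in RS4;11, and it was -0.33 in BV-173. Each line has 1 value per group, so the difference between lines was not tested.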

How the results depend on the processing

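No paired analysis was possible because the tables hold 1 value per group, and for the same reason fits with a replicate block and without single replicates were not run. Centring on the median and a mean level of at least 10 changed no call of the 10 genes. A pseudocount of 1 ended the knockdown call of *EED* (adjusted p = 0.115) and the difference calls of *CBX2* (0.104) and *CBX7* (0.102). Of 240 values of the 10 genes under the alternatives, 197 kept their direction and side of the threshold, 30 lost a call, 2 gained one and 11 changed sign, none of these past the threshold. The sign changes with knockdown were *CBX8* centred on the median (0.0018), without NALM-6 (0.017) and without RS4;11 (0.061), and *CBX7* without BV-173 (0.12). With palbociclib they were *RING1* without RS4;11 (-0.028) and *RNF2* without BV-173 (0.065). For the difference of treatments they were *EZH1* without NALM-6 (-0.11), *CBX8* without RS4;11 (0.020), and *SUZ12* (-0.0035), *BMI1* (-0.15) and *RNF2* (-0.14) without BV-173. Among all genes, knockdown calls were 7.48% lower and 4.95% higher, palbociclib calls 13.6% and 11.2%, and calls of the difference 4.16% and 7.16%. Without the trend they were 4.15% and 2.09% with knockdown and 0.173% and 0.353% for the difference, *EED* lost its knockdown call (adjusted p = 0.141), and *EZH2*, *EED*, *CBX2* and *CBX7* lost that of the difference. At a threshold of 0.05 they were 4.32% and 2% with knockdown, 5.58% higher with palbociclib, and 1.3% and 3.58% for the difference. Without NALM-6 they were 3.79% and 2.09%, 7.97% and 5.25%, and 0.767% and 2.84%, without RS4;11 2.78% and 0.917%, 7.55% and 5.78%, and 2.11% and 3.89%, and without BV-173 2.66% were lower for the difference. Without BV-173 the knockdown shares were 10.5% and 6.99%, above those with all 3 lines. Why the counts moved was not tested. Of the pairs of gene and line past 1.5-fold, 10 were lower with knockdown, and 3 were at 2-fold. The 1 pair higher with knockdown became 2 at the smaller fold and 0 at 2-fold, and with palbociclib 0 became 1 at the smaller fold. No share of all genes is given at 2-fold or at the smaller fold. Whether these counts differ from those of all genes was therefore not tested. Pairs share genes and lines, so their counts are a description and not a number of separate units. The wider Polycomb calls, *CCND2* and *BMP4* kept their direction throughout, and 73 of their 224 values lost the call. The depth per sample is unknown.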
